A study of Mus musculus with 3 samples.

Results

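The transcription factors that drive and maintain the mesenchymal state, and the cadherins whose balance they control, were measured in KO-actin mouse embryonic fibroblasts (MEFs). The group held 10 genes of the 46603 in the deposited tables, chosen by symbol: the 7 factors Twist1, Twist2, Snai1, Snai2, Zeb1, Zeb2 and Prrx1, and the 3 cadherins Cdh1, Cdh2 and Cdh11. KO-actin cells lack endogenous β-actin and express β-actin fused to a nuclear localization signal (NLS). Polyadenylated RNA of 3 KO-actin libraries, replicates 1 to 3, was sequenced, and all 3 belong to 1 condition. Libraries of wild-type and β-actin knockout MEFs were not analysed here, so each value describes KO-actin cells alone and no change against another genotype was tested. The labels give no age or sex and no number of clones, and do not say whether the libraries are separate cultures. Every p-value therefore rests on these 3 libraries, whose differences may be technical. Those for variation measure differences between libraries, and those for a ratio between genes test its direction over the libraries.

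Twist1 and Twist2 are basic helix-loop-helix factors that dimerize with E proteins. Snai1 and Snai2 are zinc finger repressors that bind E-boxes in the promoters of epithelial genes such as Cdh1, and Zeb1 and Zeb2 are zinc finger and homeodomain repressors of the same genes. Prrx1 is a homeodomain factor of limb and craniofacial mesenchyme. Loss of E-cadherin (Cdh1) and gain of N-cadherin (Cdh2) or cadherin 11 (Cdh11) mark the transition of epithelial cells to mesenchymal cells, and fibroblasts are mesenchymal cells that carry many of these factors.

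The library totals lay between 44383636 and 49932446 counts. Values are given as CPM (reads on a gene per megaread, with each library total scaled by the trimmed mean of M-values) or, between genes, as CPM per kilobase of annotated exons. A count of 0 allows up to 3 counts, which was 0.0601 to 0.0671 CPM in these libraries and is called the floor. This floor and the intervals below cover counting error only. Actb, the gene knocked out and expressed again, had 1078, 1114 and 1063 CPM, and its counts do not separate the NLS-tagged transcript from other Actb RNA. Of the 9 fibroblast markers, 8 were above the floor in all 3 libraries, among them Vim at 962 ± 50.2 and Col1a1 at 618 ± 39.9 CPM per kilobase (SD, n = 3). Named here after their values were seen, Lum had 0 counts in each library, Dcn 6 to 8 counts and Thy1 0.836 ± 0.254 CPM. Replicate 2 stood apart in GC-rich and AT-rich genes, as described with the variation between libraries.

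All 7 factors and both mesenchymal cadherins were above the floor in all 3 libraries, whereas Cdh1 was above it in replicates 1 and 2. That is 9 of 10 genes, beside 58.9% of 21624 protein-coding genes. Cdh2 was the most abundant of the 10 per kilobase and Cdh1 the least, with the 7 factors between 2.07 and 12.4 CPM per kilobase. In bulk libraries, fewer cells with a transcript and less of it per cell cannot be told apart.

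**Figure D1:**
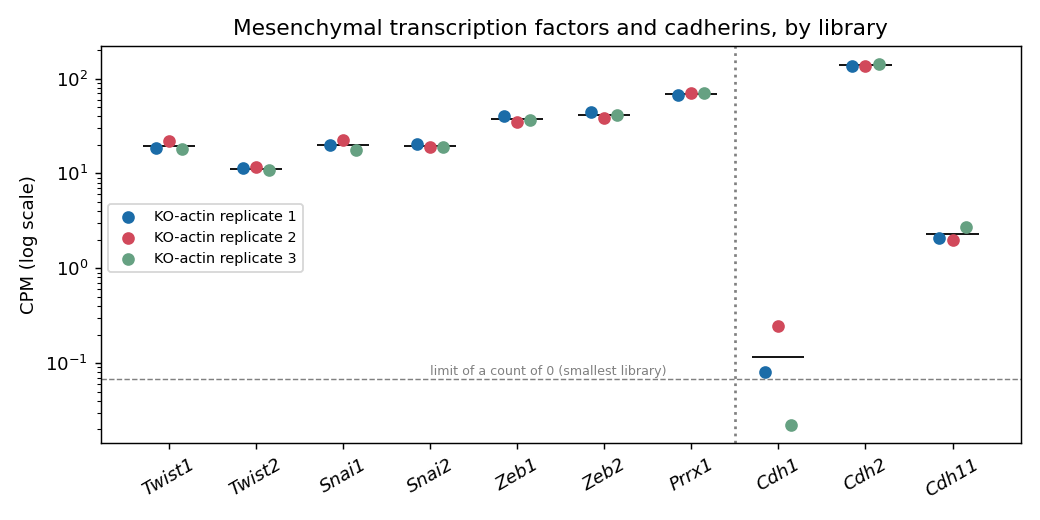
CPM of the 10 genes on a log axis, with 1 point for each KO-actin library and a black line at the mean of the 3. The 7 factors lie between 10.8 and 71.3 CPM in every library, Cdh2 between 135 and 143, and Cdh1 ranges from 0.244 CPM in replicate 2 to 0.0224 in replicate 3, under the dashed line at 0.0671 CPM that marks the limit of a count of 0 in the smallest library.

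Twist1 was the more abundant of the Twist pair. Twist1, which drives mesoderm and cranial mesenchyme formation, lies on the plus strand of chromosome 12 of GRCm38 from 33957671 to 33959829. Its counts were 936, 1082 and 808 for replicates 1, 2 and 3. These gave 18.8, 22.0 and 18.1 CPM, a mean of 19.6 ± 2.07 (SD, n = 3). Replicate 2 was the highest library, and replicates 1 and 3 were close to each other. Twist2, also called Dermo1 and expressed in dermal mesenchyme, lies on the plus strand of chromosome 1 from 91801461 to 91848028. Its 564, 577 and 482 counts gave 11.3, 11.7 and 10.8 CPM, a mean of 11.3 ± 0.462, a spread no wider than counting error.

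Per kilobase, Twist1 had 12.0 ± 1.27 and Twist2 3.55 ± 0.145 CPM per kilobase. The ratio was 3.24, 3.66 and 3.27 in the 3 libraries, a geometric mean of 3.38, with Twist1 higher in 3 of 3. An exact two-sided sign-flip permutation test gave p = 0.25 (0.25 adjusted over 7 pairs), the smallest that 3 libraries allow, so no such ratio could pass 0.05. The size of the ratio depends on the length given to Twist2, because 46.5% of its exonic length (1477 bases) is overlapped by the antisense gene Gm29100. Gm29100 itself had 114, 83 and 85 counts. Whether counting used the strand is not given in the sources used here. With the overlapped bases left out of the length, the ratio was 1.81.

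Snai1 and Snai2 differed less than the Twist pair. Snai1 (Snail), on the plus strand of chromosome 2 from 167538195 to 167542814, had 993, 1112 and 798 counts in replicates 1 to 3. The levels were 19.9, 22.6 and 17.9 CPM, a mean of 20.1 ± 2.36 (SD, n = 3). As for Twist1, replicate 2 was the highest. Snai2 (Slug), on the plus strand of chromosome 16 from 14705852 to 14709385, had 1012, 926 and 841 counts. Its levels were 20.3, 18.8 and 18.8 CPM, a mean of 19.3 ± 0.849, with replicate 1 the highest. Per kilobase, the ratio of Snai1 to Snai2 was 1.22, 1.50 and 1.18, a geometric mean of 1.29, and Snai1 was higher in 3 of 3 libraries (exact sign-flip permutation p = 0.25). This direction depends on the length used. Without division by length the geometric mean was 1.04, and Snai2 was above Snai1 in replicates 1 and 3. Snai3, the remaining Snail gene, had a mean of 0.211 CPM and was above the floor in 2 of 3 libraries; it was named after its value was seen.

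Zeb1 and Zeb2 carried more counts than the Twist and Snail genes but, over their long transcripts, lower levels per kilobase than Twist1, Snai1 and Snai2. Zeb1, on the plus strand of chromosome 18 from 5591860 to 5775467, had 2022, 1731 and 1645 counts and 37.5 ± 2.75 CPM (SD, n = 3). Zeb2 (Sip1), on the minus strand of chromosome 2 from 44983632 to 45117395, had 2224, 1877 and 1852 counts and 41.4 ± 3.24 CPM. For both genes replicate 1 was the highest and replicate 2 the lowest. Per kilobase the order of the pair turned. Zeb1 had 3.65 ± 0.268 and Zeb2 2.07 ± 0.162 CPM per kilobase, a ratio of Zeb2 to Zeb1 of 0.566, 0.558 and 0.580. This ratio had a geometric mean of 0.568, lower than 1 in 3 of 3 libraries (exact sign-flip permutation p = 0.25), where CPM without division by length gave 1.10. The exonic length of each gene sums all its annotated isoforms, 12 for Zeb1 and 29 for Zeb2. With the longest transcript as the length, the ratio was 0.701. Genes on the opposite strand overlap 1.93% of the exonic length of Zeb1 (Gm10125, 49, 35 and 36 counts) and, with a microRNA gene, 3.30% of that of Zeb2 (chiefly Zeb2os, 7, 1 and 8 counts).

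Prrx1 had the highest CPM of the factors. On the minus strand of chromosome 1 from 163245119 to 163313710, it had 3333, 3469 and 3185 counts. The levels were 66.8, 70.4 and 71.3 CPM, a mean of 69.5 ± 2.39 (SD, n = 3), with replicate 1 the lowest. Per kilobase Prrx1 had 6.28 ± 0.216 CPM per kilobase, 0.523 times the level of Twist1 and below it in 3 of 3 libraries (exact sign-flip permutation p = 0.25). The ratio was 0.887 with the longest transcript of each gene as its length.

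The 7 factors summed to 49.5 ± 2.57 CPM per kilobase (SD, n = 3). Snai1 made up 25.0% ± 1.64, Twist1 24.3% ± 1.43 and Snai2 19.3% ± 1.27 of that sum. Prrx1 followed with 12.7% ± 0.885, Zeb1 with 7.39% ± 0.727, Twist2 with 7.17% ± 0.0794 and Zeb2 with 4.20% ± 0.463. The Snail pair and Twist1 thus held the larger part of the summed level.

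The cadherins spanned a wider range than the factors. Cdh2 (N-cadherin), on the minus strand of chromosome 18 from 16588877 to 16809246, had 6831, 6629 and 6373 counts. Its levels were 137, 135 and 143 CPM, a mean of 138 ± 4.18 (SD, n = 3). Cdh11 (OB-cadherin), a type II cadherin of mesenchymal cells on the minus strand of chromosome 8 from 102632095 to 102785642, had 105, 97 and 123 counts. These gave 2.10, 1.97 and 2.75 CPM, a mean of 2.28 ± 0.419, with replicate 3 the highest. Cdh1 (E-cadherin), on the plus strand of chromosome 8 from 106603351 to 106670246, was covered by 4, 12 and 1 counts in turn. Its 17 counts in all have an exact Poisson interval of 9.90 to 27.2, and the pooled level was 0.118 CPM (0.0688 to 0.189). Most of the Cdh1 counts came from replicate 2, and without that library the mean level was 0.0514 CPM in place of 0.115.

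Per kilobase Cdh2 was far above Cdh1 in every library. The ratio was 968 in replicate 1, with an exact binomial 95% interval of 378 to 3555. It was 313 (179 to 607) in replicate 2 and 3614 (648 to 142765) in replicate 3. From the pooled counts it was 662 (413 to 1136). The geometric mean of the 3 ratios, 1031, moved to 1871 without replicate 2 and to 551 without replicate 3. Cdh11 was 13.5, 4.15 and 63.2 times Cdh1, a pooled ratio of 9.82 (6.04 to 17.1), and its geometric mean of 15.2 became 29.2 without replicate 2 and 7.48 without replicate 3. Cdh2 exceeded Cdh11 71.8, 75.4 and 57.2 times, a geometric mean of 67.7. Each of these directions held in 3 of 3 libraries, with an exact sign-flip permutation p of 0.25. Of the cadherins of mesenchymal cells, Cdh2 was above each of the 7 factors per kilobase, 1.38 times the level of Snai1, the highest of them, and Cdh11 was below each.

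From highest to lowest per kilobase, the order of the mean levels was Cdh2, Snai1, Twist1, Snai2, Prrx1, Zeb1, Twist2, Zeb2, Cdh11 and Cdh1. The 3 values of neighbours did not overlap for 7 of the 9 neighbouring pairs. Snai1 and Twist1 overlapped, as did Zeb1 and Twist2. The length used affects the middle of the order. With the longest transcript, Prrx1 moved above Snai2 and Zeb2 above Twist2, the latter pair then overlapping, and with overlapped bases left out Twist2 moved above Prrx1 and Zeb1. Cdh2 stayed first, and Cdh11 and Cdh1 last, with each of the 3 lengths. Among the 12726 protein-coding genes above the floor in all 3 libraries, 73.5% had a lower level per kilobase than Cdh2, 65.8% a lower level than Snai1, 49.4% a lower level than Prrx1 and 28.3% a lower level than Zeb2. For Cdh11 that share was 10.5%, and for Cdh1 0.888%.

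**Figure D2:**
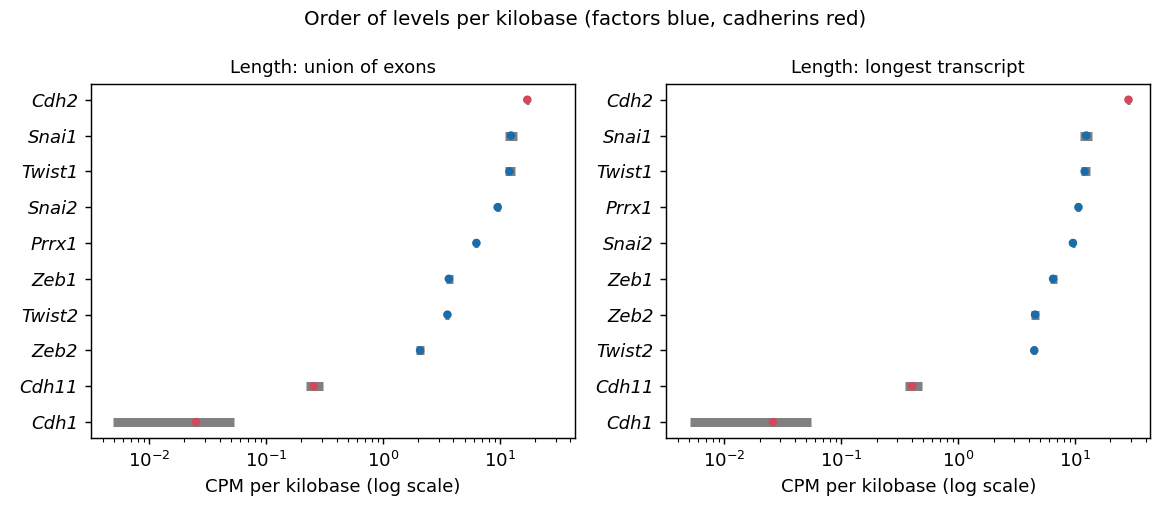
Mean CPM per kilobase on a log axis (points) with the range of the 3 KO-actin libraries (grey bars), for factors in blue and cadherins in red. With the union of exons as length (left) the order runs from Cdh2 at 17.1 to Cdh1 at 0.0252 CPM per kilobase, and with the longest transcript (right) Prrx1 at 10.6 lies above Snai2 at 9.55.

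A minimum of 10 counts per library left 9 of the 10 genes for a test of variation, of which 6 varied between libraries beyond counting error by a chi-square test against the scaled library sizes, adjusted over all 13814 genes tested. The background was 43.9% of these genes. The 6 were Snai1 (adjusted p = 1.54e-05), Zeb2 (2.33e-05), Twist1 (0.000152), Zeb1 (0.000231), Cdh2 (0.00896) and Prrx1 (0.0447). Cdh11 (adjusted p = 0.0595), Snai2 (0.248) and Twist2 (0.515) did not pass. Cdh1 was too low for the test, and with no limit on counts its adjusted p was 0.0227. In size the differences were small: the highest library was over 1.2 times the lowest for 3 of the 9, Twist1, Snai1 and Cdh11, where 27.7% of all genes tested were.

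Replicate 2 was the highest library for Twist1 and Snai1, a pattern that 20.3% of all genes tested showed with a passing test. It was the lowest for Zeb1, Zeb2 and Cdh2, as 17.4% of all genes did. However, replicate 1 lay farthest from the mean of the 3 for Zeb1 and Prrx1, and replicate 3 for Cdh2. On the log2 scale, replicate 2 minus the mean of replicates 1 and 3 was 0.26 for Snai1 and 0.25 for Twist1, and −0.14 for Zeb1 and −0.17 for Zeb2. Snai1 and Twist1 have the most GC-rich transcripts of the 10 genes, 59.8% and 59.3%, and Zeb2, at 40.6%, has the lowest GC content. Across the 9 genes, Spearman's rho of the deviation of replicate 2 with GC content was 0.767, and across 13770 genes it was 0.492. Both describe genes that share the same libraries and are not independent, so no p is given. Within bins of GC content, the deviation of replicate 2 became 0.12 for Snai1, 0.14 for Twist1, −0.08 for Zeb1 and −0.06 for Zeb2. It grew from 0.03 to 0.11 for Prrx1 and from −0.05 to −0.07 for Cdh2. For Cdh11 it went from −0.29 to −0.25, for Twist2 from 0.08 to 0.05 and for Snai2 from −0.06 to 0.03.

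After centring within those bins, 3 of the 9 genes passed the test, where 29.9% of all genes did. These were Prrx1 (adjusted p = 0.000296), Zeb1 (0.0062) and Cdh2 (0.00787), while Zeb2 had 0.0524, Snai1 0.0566 and Twist1 0.106. Without replicate 2, 1 of the 9 passed, Zeb1 (adjusted p = 0.0364), where 12.5% of 14037 genes did. Without replicate 1, Zeb1 (adjusted p = 0.372) and Prrx1 (0.849) did not pass, and Cdh11 (0.045) did. Without replicate 3, Cdh2 (adjusted p = 0.472) and Prrx1 (0.0783) did not pass. The part of GC content in the differences between libraries was not tested beyond this centring.

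**Figure D3:**
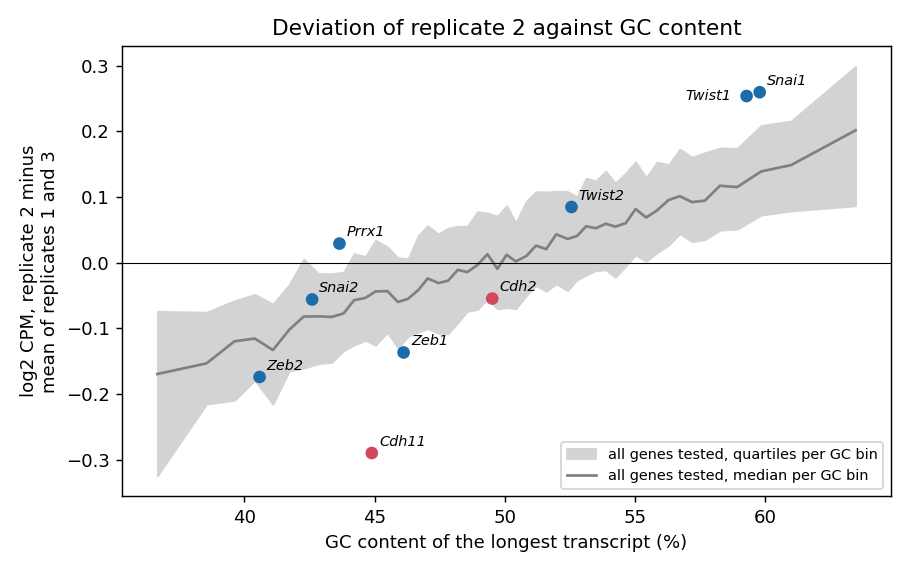
Difference in log2 CPM between replicate 2 and the mean of replicates 1 and 3 against the GC content of the longest transcript, for the 9 genes tested (factors blue, cadherins red). The grey line and band are the median and quartiles of all genes tested in bins of GC content. Snai1 and Twist1, at 59.8% and 59.3% GC, lie above the band at 0.26 and 0.25, as does Prrx1 at 0.03. Cdh11 at −0.29 and Zeb1 at −0.14 lie below it.

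Most genes of the wider cadherin family were near or under the floor. Of 23 listed cadherin genes, 8 were above the floor in all 3 libraries and 11 at or under it in every library, and 7 of these 11 had no count at all. Only 5 reached a mean of 1 CPM: Cdh2, Cdh13, Cdh24, Cdh11 and Cdh18. Of the summed level per kilobase of the 23, Cdh2 held 56.5% ± 1.53 (SD, n = 3), Cdh24 27.6% ± 1.09 and Cdh13 13.1% ± 0.332. Cdh18 held 1.38% ± 0.136, Cdh11 0.844% ± 0.152 and Cdh1 0.0834% ± 0.0828.

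Among the type I cadherins, Cdh3 (P-cadherin) had 0.133 ± 0.0283 CPM (SD, n = 3), near the level of Cdh1, and Cdh4 and Cdh15 were at or under the floor in every library. Cdh24, a type II cadherin, had 29.2 ± 1.08 CPM and 8.36 ± 0.311 CPM per kilobase. It was thus above Cdh11 (0.256 ± 0.0471 CPM per kilobase), the mesenchymal type II cadherin, in 3 of 3 libraries. The type II genes at or under the floor were Cdh5, the endothelial VE-cadherin, and Cdh6, Cdh7, Cdh9, Cdh12, Cdh19 and Cdh20. Cdh13, a cadherin anchored by lipid and without a cytoplasmic tail, had 44.4 ± 0.998 CPM, and Cdh16 and Cdh26 had no count. Variation beyond counting error was tested in 5 of the 23, of which Cdh2 passed, beside 43.9% of all genes.

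**Figure D4:**
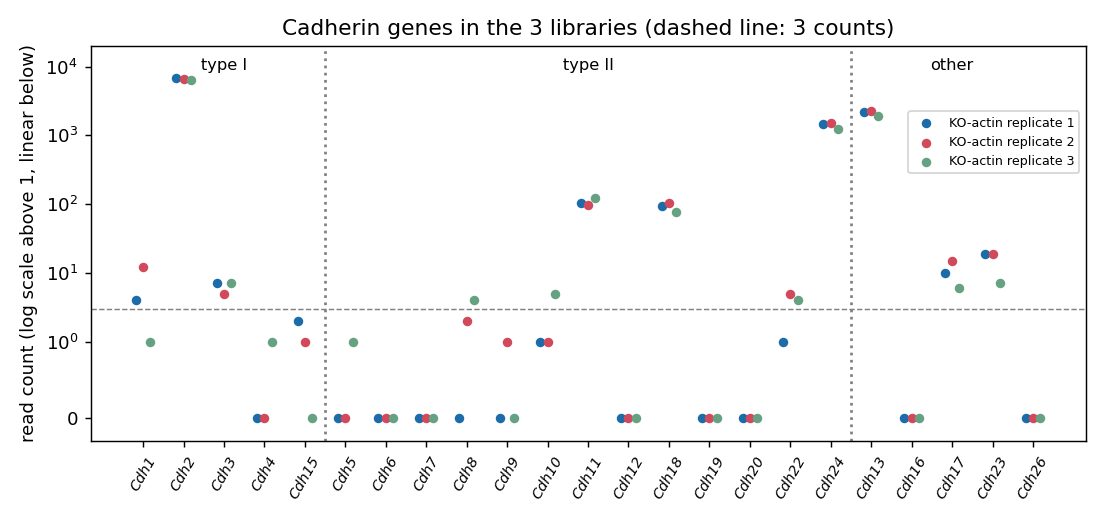
Read counts of 23 cadherin genes in each KO-actin library, on an axis that is logarithmic above 1 count and linear below, with a dashed line at 3 counts. Cdh2 lies between 6373 and 6831 counts, Cdh13 and Cdh24 above 1000, Cdh11 between 97 and 123, and Cdh1 between 1 and 12.

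Cadherins act through catenins, which couple their tails to actin. Of 11 catenin and junction genes, 9 were above the floor in all 3 libraries, the highest being Ctnnb1 (β-catenin) at 139 ± 1.95, Vcl (vinculin) at 61.8 ± 0.618 and Ctnna1 (αE-catenin) at 60.4 ± 1.01 CPM per kilobase (SD, n = 3). Ctnnb1 was thus above Cdh2 per kilobase, by more than the spread between libraries. Ctnna3 was at or under the floor. Of the 9 tested, 6 varied between libraries, beside 43.9% of all genes.

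Epithelial genes were not uniformly absent. Of 19 epithelial markers besides Cdh1, 10 were above the floor in all 3 libraries and 4 (Epcam, Cldn3, Cldn4 and Cldn7) at or under it in every library. Krt18 had 26.4 ± 0.754, Krt19 23.8 ± 2.23 and Llgl2 9.93 ± 0.420 CPM per kilobase (SD, n = 3). Krt18 and Krt19 are simple-epithelium keratins, and their levels per kilobase of annotated exons were above that of Cdh2 in 3 of 3 libraries. This order depends on the length used. Without division by length, Cdh2 at 138 CPM was above Krt18 at 37.9 and Krt19 at 44.1 CPM. The median of the 19 was 0.0576 CPM per kilobase. The summed level of the 19 was 136 to 148 CPM in the 3 libraries, most of it Krt18, Krt19 and Llgl2. The sum was highest in replicate 2, as was that of the 14 mesenchymal markers (15904 to 16992 CPM). Of 8 markers tested, 2 varied between libraries (Krt19 and Llgl2), beside 43.9% of all genes tested.

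Of 15 transcription and splicing factors of epithelial identity, 8 were above the floor in all 3 libraries and 6 (Grhl3, Ovol2, Elf5, Ehf, Trp63 and Esrp1, the last a splicing factor) at or under it. Klf4 had 9.39 ± 0.793, Klf5 5.60 ± 0.156 and Foxa1 1.50 ± 0.0653 CPM per kilobase (SD, n = 3). Klf4 thus lay at the level of Snai2, whose values overlapped it in these libraries. The epithelial factors Ovol2 and Grhl2 are known to oppose Zeb1; Grhl2, named after its value was seen, had 0.119 ± 0.0378 CPM. The summed level of the 15 genes was 65.4 to 71.2 CPM. Of 6 tested, 1 varied between libraries, beside 43.9% of all genes.

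All 14 mesenchymal markers were above the floor in all 3 libraries, with a median of 63.2 CPM per kilobase. Vim, Col1a1 and Sparc (411 ± 12.2 CPM per kilobase, SD, n = 3) were the highest, and 11 of the 14 varied between libraries (43.9% of all genes), 7 with replicate 2 the highest (20.3%). Of 12 other factors linked to the mesenchymal transition, 8 were above the floor in all 3 libraries. Hmga2, a chromatin architectural factor that activates Snai1 and Twist1 in other cells, led with 26.7 ± 0.813 CPM per kilobase, followed by Prrx2, the paralog of Prrx1, with 12.6 ± 1.73. Prrx2 was above Prrx1 per kilobase in 3 of 3 libraries, but below it without division by length (24.7 against 69.5 CPM). Gsc, Tbx3 and Tbxt (brachyury) were at or under the floor. Of the 8 tested, 5 varied (43.9% of all genes), 4 of them with replicate 2 the highest (20.3%).

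The partners of the factors were present. Twist proteins bind DNA as dimers with E proteins, and Id proteins sequester E proteins. All 7 genes of these families were above the floor in all 3 libraries, led by Id3 at 206 ± 11.5, Id1 at 110 ± 3.03 and Tcf3 (E12/E47) at 63.2 ± 4.64 CPM per kilobase (SD, n = 3). Each of these was above both Twist genes. Of the 7, 4 varied between libraries, a share near the 43.9% of all genes.

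All 13 corepressor genes that act with Snail or Zeb factors were above the floor, led by Ctbp1 (81.1 ± 3.84), Chd4 (65.2 ± 0.227) and Ajuba (47.3 ± 0.578 CPM per kilobase). Of these 13, 8 varied (43.9% of all genes), 6 of them with replicate 2 the lowest (17.4%). Snail protein is turned over by phosphorylation and ubiquitin ligases, which RNA levels do not show. All 8 genes of that list were above the floor, led by Fbxo11 (20.3 ± 1.02), Pak1 (15.5 ± 0.887) and Gsk3b (13.9 ± 0.0346 CPM per kilobase), and 3 of the 8 varied, a share near that of all genes.

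Most markers of other cell types were low. Of 5 endothelial markers, 2 were above the floor in all 3 libraries, with a summed level of 2.01 to 2.56 CPM, most of it Kdr, and Cdh5 and Emcn were at or under the floor. None of 4 blood markers was above the floor in all 3 libraries, at a summed level of 0.200 to 0.386 CPM. Of 5 muscle markers, 1 was, Des, at a summed level of 9.42 to 11.2 CPM, and Myod1, Myog and Pax7 had no count. Of 5 neural markers, 3 were, at a summed level of 2.23 to 3.20 CPM, and Sox2 was at or under the floor. The test of variation was possible for 5 of these 19 genes, and none of the 5 passed, beside 43.9% of all genes. Most of the 5 had low counts, which leave the test little power. Low is relative to the members compared. Des, at 2.76 ± 0.237 CPM per kilobase (SD, n = 3), was above Zeb2 (2.07 ± 0.162). Kdr, at 0.231 ± 0.0307 CPM per kilobase, was near Cdh11 (0.256 ± 0.0471).

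Zeb1 and Zeb2 are classic targets of the miR-200 family, epithelial microRNAs that pair with the 3′ untranslated regions of both. The mature mouse sequences are shown because the family holds 2 seeds that differ in 1 base. They come from RefSeq (GRCm38.p6), are written 5′ to 3′ and have the seed, bases 2 to 8, in capitals. The first 3 share the seed AAUACUG and the last 2 the seed AACACUG.
mmu-miR-200b-3p: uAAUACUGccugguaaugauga
mmu-miR-200c-3p: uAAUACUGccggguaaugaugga
mmu-miR-429-3p: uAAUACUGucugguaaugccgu
mmu-miR-200a-3p: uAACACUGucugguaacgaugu
mmu-miR-141-3p: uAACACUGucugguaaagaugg

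The genes of miR-200a, miR-200b and miR-429 lie together on chromosome 4 and those of miR-200c and miR-141 on chromosome 6. Each of the 5 gene rows had 0 counts in all 3 libraries. Libraries of polyadenylated RNA do not capture mature microRNAs, so these zeros give no level of the family.

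Matches to the reverse complement of either seed (CAGTATT or CAGTGTT, sense strand only) were counted in the 3′ untranslated region of 1 annotated transcript of each gene. Zeb1 held 9 matches in 2401 bases and Zeb2 9 in 4941 bases. Of 883 untranslated regions within 1.2-fold of the length of that of Zeb2, its own included, 67.3% held a match and 1 (0.113%), that of Zeb2, held 9 or more. Around the length of Zeb1 the shares were 46.9% and 0.0423% of 2363 regions, the 1 region with 9 being that of Zeb1. Snai2 held 2 matches, Snai1 and Cdh11 held 1 each, and Twist1, Twist2, Prrx1, Cdh1 and Cdh2 held none. The count for Zeb2 came from 4 matches to the seed of miR-200a and 5 to that of miR-200b. Matches are a description of the sequence and show neither pairing nor repression in these cells.

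The 3 matches of Zeb2 nearest to the stop codon are shown as examples, from GRCm38 and on the minus strand, with the seed match in capitals. They lie at chr2:44988357-44988379, chr2:44988173-44988195 and chr2:44988108-44988130 in turn.
Zeb2 match 1: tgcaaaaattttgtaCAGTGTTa
Zeb2 match 2: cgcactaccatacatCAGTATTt
Zeb2 match 3: cgcactacagtgcatCAGTATTa

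**Figure D5:**
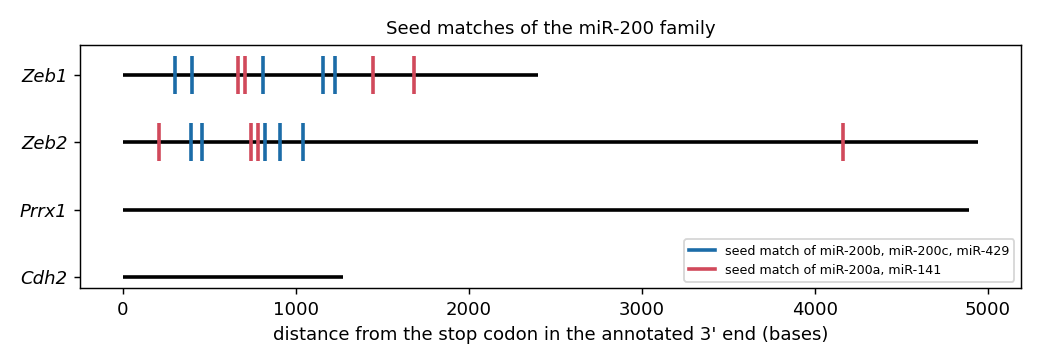
Positions of miR-200 family seed matches in the annotated 3′ untranslated regions of 4 of the genes, as distance from the stop codon in bases. Zeb1 and Zeb2 hold 9 each, 8 of those of Zeb2 starting between 209 and 1039 bases and the last at 4163, and Prrx1 (4891 bases) and Cdh2 (1270 bases) hold none.

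RefSeq windows of the 250 bases before the start site on GRCm38.p6 were matched for 5 of the 10 genes. Those of Snai1 and Twist1 are shown, the pair that varied between libraries with replicate 2 the highest. That of Twist2, which lies under the antisense gene Gm29100, is also shown. Capitals mark CACCTG (the E-box that Snail and Zeb factors bind), GGGCGG (GC box), CCAAT and TATAAA on either strand. The windows are chr2:167537945-167538194, chr12:33957421-33957670 and chr1:91801211-91801460, all on the plus strand.
Snai1: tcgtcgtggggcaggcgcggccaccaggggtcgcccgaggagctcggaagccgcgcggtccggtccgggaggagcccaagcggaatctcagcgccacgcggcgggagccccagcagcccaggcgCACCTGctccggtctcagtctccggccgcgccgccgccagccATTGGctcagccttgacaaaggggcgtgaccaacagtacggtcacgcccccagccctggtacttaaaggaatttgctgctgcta
Twist1: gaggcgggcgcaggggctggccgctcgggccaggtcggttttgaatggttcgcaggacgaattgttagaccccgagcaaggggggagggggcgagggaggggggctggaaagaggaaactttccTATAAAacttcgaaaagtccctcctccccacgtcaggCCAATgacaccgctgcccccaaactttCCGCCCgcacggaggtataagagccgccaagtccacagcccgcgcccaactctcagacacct
Twist2: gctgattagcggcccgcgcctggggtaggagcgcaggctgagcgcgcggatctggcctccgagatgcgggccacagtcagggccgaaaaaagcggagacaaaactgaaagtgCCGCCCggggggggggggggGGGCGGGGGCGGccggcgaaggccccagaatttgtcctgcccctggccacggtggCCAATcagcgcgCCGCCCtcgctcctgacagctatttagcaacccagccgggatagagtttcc

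The Snai1 window held 1 CACCTG match, 126 bases before the start, and was 70.0% GC. The Twist1 and Twist2 windows held no match to that E-box and were 62.4% and 68.8% GC. For scale, 17.2% of 32851 windows of the same length held the E-box, and the median window was 52.4% GC. Twist1 had a TATAAA match 126 bases, a CCAAT match 89 bases and a GC box 62 bases before the start, and Twist2 had 4 GC boxes and a CCAAT match 63 bases before it. Of all windows, 32.7% held a GC box, 33.8% CCAAT and 12.4% TATAAA. The matches are letters in these windows and show no binding.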

How the data were processed

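Per library, a table of raw read counts by Ensembl gene was deposited, with no normalization. The submitters' processing notes name Trimmomatic, FastQC, HISAT2, HTSeq and the builds mm10 and GRCm38; versions, strand setting, read length and treatment of multiply mapped reads are not given in the sources used here. The 10 genes and the 18 gene lists were chosen with earlier results of these data known. Library sizes (44383636 to 49932446 counts) were scaled by TMM (edgeR 4.0.16, R 4.3.3), alternatively by size factors from DESeq2 1.42.0 or by totals. The TMM factors were 1.00, 0.994 and 1.01. Symbols were matched by identifier for 46005 of 46603 genes. GENCODE M21 (GRCm38) gave coordinates, GC content and length, the latter as the union of exons. Sequences came from RefSeq and that genome.

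Variation between libraries was tested by a chi-square (2 degrees of freedom) with Benjamini-Hochberg adjustment over genes with a minimum of 10 counts per library, at 0.05, and checked on simulated data. A gene that varies in this test differs between libraries of 1 condition. Ratios between genes were compared by an exact sign-flip permutation test over the 3 libraries, and intervals were exact (Poisson or binomial, 95%). From each list, the 3 genes highest per kilobase and those at or under the floor of 3 counts in every library are named, except 1 gene that is not reported here. Centring within 50 bins of GC content and the length without overlapped bases were added after values had been seen. Python 3.11.15, numpy 2.4.6, pandas 2.3.3, scipy 1.17.1 and matplotlib 3.10.9 were used. Amino acid sequences and the promoters of Snai2, Zeb1, Cdh1, Cdh2 and Cdh11 were not used here.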

Additional observations from a re-analysis of the deposited data

How the results depend on the processing

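DESeq2 size factors, total counts and leaving out each replicate left all 50 mean CPM values compared within the spread (SD) between libraries. Leaving out 1 of 3 values cannot move a mean by more than that SD, apart from small rescaling, so these means had to pass. Changing the scaling alone moved no mean by more than 0.404%. Of 56 ratios between genes under the alternatives, 54 kept the direction of their mean log2 value. Library scaling cancels in such a ratio, and each direction already held in every library. Only a change of the length used could therefore turn a ratio. The 2 that turned did so when CPM was not divided by length: the log2 ratio of Zeb2 to Zeb1 became 0.14 and that of Prrx1 to Twist1 1.83. The mean log2 ratio of Snai1 to Snai2 kept its direction there at 0.05, but Snai2 was above Snai1 in replicates 1 and 3. The number of the 9 genes that varied between libraries was 3 after centring within bins of GC content, against 6, and 1 to 5 when a replicate was left out, with the 1 (Zeb1) reached without replicate 2. Over all genes the number was 1748 to 4786 when a replicate was left out, against 6063, and it was 1748 without replicate 2; fewer libraries also give the test less power. Total counts added Cdh11 (adjusted p = 0.0485), and with no limit on counts Prrx1 had 0.068. The level of Cdh1 rests on 17 counts, so its ratios to the other cadherins are loosely bounded (313 to 3614 between libraries for Cdh2, 4.15 to 63.2 for Cdh11), and its detection in every library was not reached because replicate 3 had 1 count. No comparison between conditions, paired or not, was possible because all libraries belong to 1 condition.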
